A study of Homo sapiens with 9 samples.

Results

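The 10 genes ERG, ETV1, ETV4, ETV5, FLI1, ETS1, ETS2, ELF3, SPDEF and EHF of the ETS family of transcription factors were followed in VCaP, a long-established line of prostate cancer cells. They were taken by gene name from the 58735 genes of the count table, where 10 of 10 names had a row, and 15555 genes passed the filter on low counts and were tested. ETS factors share a DNA-binding domain, the ETS domain, that reads a short GGAA core in promoters and enhancers, and many are switched on by ERK kinase signalling. In prostate cancer ERG, ETV1, ETV4, ETV5 and FLI1 are known as genes that chromosome rearrangements place behind an androgen-responsive promoter, most often that of TMPRSS2, and VCaP carries a TMPRSS2 and ERG fusion. SPDEF, EHF and ELF3 are instead ETS factors of normal epithelium.

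Cells grown in medium with 10% fetal bovine serum and 2 nM of the androgen DHT received siCtrl, a control siRNA, or either of 2 siRNAs against CDO1, the cysteine-oxidising enzyme cysteine dioxygenase (siCDO1A and siCDO1C), and 3 libraries of poly(A) RNA were read per condition, 9 in all. The labels call the libraries biological replicates and give each a batch number equal to its replicate number, so that p-values measure the spread between these libraries of 1 cell line. The total count was between 12061295 and 16073698 per library, and 3 counts, the most that a count of 0 allows, were 0.187 to 0.249 CPM, the count scaled for library size. CDO1 fell from 14.0 CPM ± 0.277 (SD, n = 3) with siCtrl to 2.50 ± 0.674 with siCDO1A and 1.69 ± 0.974 with siCDO1C. By principal components of 11330 genes siCDO1C replicate 2 stood apart from its group, at 12.9 on the second component against -9.89 and -12.7. For siCDO1C, counts of members and family genes called, and genes then newly called against siCtrl, are therefore also given without it. To a lesser degree siCDO1A replicate 3 also lay off its group, at -7.36 on the second component against 3.41 and 1.46. Gene counts do not separate reads of the fusion transcript from other ERG reads, and the RNA of more cells cannot be told apart from more RNA per cell.

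To show the bases before a listed start of the members the comparisons turn on, the 250 bases before the start in RefSeq (GRCh38.p14) that lies nearest to the 5′ end of the deposited gene are given 5′ to 3′ on the strand of the gene, with GGAA or its reverse complement TTCC in capitals. The table held a window for 6 of the 10 members and none for ETS1, ETV4, ETV5, FLI1 or TMPRSS2. The windows shown are chr21:38660668-38660917 (minus strand) for ERG, chr21:38804933-38805182 (plus) for ETS2, chr11:34624007-34624256 (plus) for EHF and chr6:34556330-34556579 (minus) for SPDEF, the most abundant member.
ERG: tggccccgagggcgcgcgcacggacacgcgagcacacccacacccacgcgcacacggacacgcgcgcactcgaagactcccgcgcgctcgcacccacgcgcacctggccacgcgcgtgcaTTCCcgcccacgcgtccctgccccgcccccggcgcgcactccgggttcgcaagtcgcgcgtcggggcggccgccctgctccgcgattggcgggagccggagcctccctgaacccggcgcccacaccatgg
ETS2: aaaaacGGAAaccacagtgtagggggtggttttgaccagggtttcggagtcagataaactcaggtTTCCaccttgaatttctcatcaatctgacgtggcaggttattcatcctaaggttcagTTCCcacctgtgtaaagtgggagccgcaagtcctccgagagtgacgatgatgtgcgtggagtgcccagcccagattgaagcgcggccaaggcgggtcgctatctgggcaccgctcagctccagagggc
EHF: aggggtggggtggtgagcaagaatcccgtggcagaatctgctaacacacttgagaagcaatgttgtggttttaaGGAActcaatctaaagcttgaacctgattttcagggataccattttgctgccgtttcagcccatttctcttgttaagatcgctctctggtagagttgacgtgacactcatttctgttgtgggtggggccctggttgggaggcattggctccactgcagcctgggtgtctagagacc
SPDEF: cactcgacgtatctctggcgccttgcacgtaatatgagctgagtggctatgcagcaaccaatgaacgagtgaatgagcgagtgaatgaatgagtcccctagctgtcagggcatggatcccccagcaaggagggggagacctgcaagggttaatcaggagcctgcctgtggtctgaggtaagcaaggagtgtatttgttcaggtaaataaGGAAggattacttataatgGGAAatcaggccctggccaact
The ERG window held 1 core, ETS2 3, EHF 1 and SPDEF 2. Of 35093 windows of the same length over 27305 genes, 92.7% held at least 1, with a median of 3. The longer ETS site CCGGAAG (reverse complement CTTCCGG), which contains the core, was in 8.52% of all windows and in none of the 6 members' windows. These matches describe letters and not binding. The ERG and EHF windows lie inside the deposited genes, and in the fusion ERG is driven from the promoter of TMPRSS2 and not from the ERG window.

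Of the 10 members, 7 passed the filter on low counts and 5 reached a mean of 1 FPKM, the CPM divided by the length of the gene in kilobases. SPDEF, the prostate-derived ETS factor of luminal epithelium, was highest at 145 FPKM, with libraries between 128 and 161, and ranked 192 among the genes tested. EHF, an epithelium-specific ETS factor, followed at 58.3 FPKM (50.7 to 66.2). ERG came next at 24.6 FPKM (22.3 to 28.8) and ranked 1853. The ranges of these members did not overlap over the 9 libraries, and the mean FPKM of SPDEF was 2.49 times that of EHF and that of EHF 2.36 times that of ERG. ELF3, another epithelial member, had 6.59 FPKM (5.62 to 7.85), and ETS2, a widely expressed target of ERK, 3.42 (2.37 to 3.96). They too were separate from their neighbours in the order.

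**Figure D1:**
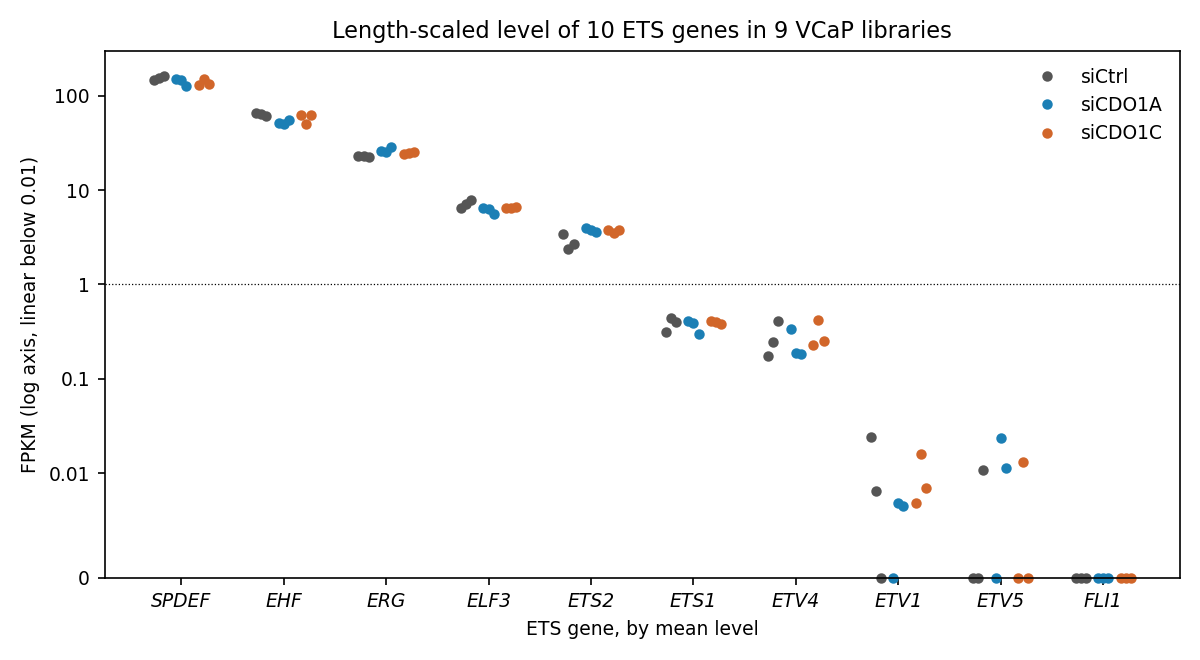
FPKM of each of the 10 ETS genes (log axis, linear below 0.01) in the 9 libraries, 1 point per library, coloured by siRNA, with a dotted line at 1 FPKM. SPDEF, EHF, ERG, ELF3 and ETS2 lie above the line in every library, ETS1 and ETV4 lie below it with overlapping ranges, and FLI1 is at 0 throughout.

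ETS1, the closest relative of ETS2 and best known from lymphoid and endothelial cells, had 0.384 FPKM (0.295 to 0.445) from 29 to 46 counts per library. ETV4, of the PEA3 group, had 0.271 FPKM (0.173 to 0.421) from 8 to 24 counts, and the ranges of ETS1 and ETV4 overlapped. Both passed the filter, at ranks 14250 and 14737 of the 15555 genes tested. The other PEA3 members, ETV1 and ETV5, had 0 to 3 and 0 to 2 counts per library, 10 and 5 counts over all libraries, and were not tested. FLI1, the closest relative of ERG and a factor of blood and endothelial cells, had 0 counts in each of the 9 libraries, which allows at most 3 counts in each. Of the members known as fusion genes, ERG alone was therefore above 1 FPKM.

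By position in GRCh38, ERG (ENSG00000157554) was listed on the minus strand of chromosome 21 at 38380027 to 38661780 and ETS2 (ENSG00000157557) on the plus strand of the same chromosome at 38805307 to 38824955, between ERG and TMPRSS2. ETS1 (ENSG00000134954, chromosome 11, 128458761 to 128587558) and FLI1 (ENSG00000151702, chromosome 11, 128686535 to 128813267) are neighbours too. EHF (ENSG00000135373) was on chromosome 11 at 34621093 to 34661057, SPDEF (ENSG00000124664) on chromosome 6 at 34537802 to 34556333 and ELF3 (ENSG00000163435) on chromosome 1 at 202007945 to 202017188. ETV1 (ENSG00000006468), ETV4 (ENSG00000175832) and ETV5 (ENSG00000244405) were on chromosomes 7, 17 and 3.

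Against 28 genes of the whole ETS family, 21 of which were tested and 16 of which reached 1 FPKM, the 10 members held 72.3% of the summed FPKM (70.7 to 73.8 over libraries). SPDEF alone held 43.9%, EHF 17.7% and ERG 7.50%. By counts, which favour long genes, the share of ERG was 15.1% (13.3 to 17.7), with a mean of 13.4% with siCtrl, 16.8% with siCDO1A and 15.1% with siCDO1C. The family genes next in level were ELK1 and ELK4, partners of serum response factor, at 18.5 and 6.17 FPKM, ELF1 at 16.3, GABPA, a factor of nuclear-encoded mitochondrial genes, at 15.2, and the repressor ERF at 13.5. Each of these but ELK4 was above ELF3 in mean level, and all were below ERG.

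The comparison of siCDO1A with siCtrl asked whether these genes differed with this siRNA. By itself it cannot tell lower CDO1 apart from other effects of siCDO1A. ERG and ETS2 rose, EHF fell, and the other 4 tested members did not pass the test. ERG had 172, 174 and 169 CPM with siCtrl and 199, 191 and 219 CPM with siCDO1A, for replicates 1 to 3. Every siCDO1A library was above every siCtrl library, and thus also within each batch number. The log2 fold change was 0.24 (SE 0.0585, 95% interval 0.12 to 0.36, 1.18-fold higher), with an adjusted p of 0.00825 by the quasi-likelihood test of edgeR with Benjamini-Hochberg adjustment. With the batch number as a block the change was 0.24 with an adjusted p of 0.0509, so that this call was lost.

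ETS2 had 15.7, 10.9 and 12.4 CPM with siCtrl and 18.2, 17.2 and 16.6 CPM with siCDO1A, again without overlap. Its log2 fold change was 0.41 (SE 0.124, interval 0.16 to 0.67, 1.33-fold higher, adjusted p 0.027). The control libraries were spread more widely than those with siCDO1A, at 13.0 CPM ± 2.47 against 17.3 ± 0.784 (SD, n = 3). Without siCtrl replicate 2 or 3 the adjusted p was 0.161 or 0.0832, and without siCDO1A replicate 1 or 2 it was 0.0964 or 0.0812, so that the call for ETS2 rested on each of these libraries.

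EHF moved the other way. It had 290.2, 278 and 270.0 CPM with siCtrl and 227, 222 and 245 CPM with siCDO1A, so that all siCDO1A libraries were lower. The log2 fold change was -0.27 (SE 0.0551, interval -0.39 to -0.16, 1.21-fold lower, adjusted p 0.00206). This call was kept in each of the other fits that were run and without each library in turn, with adjusted p up to 0.0365.

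ELF3 had 46.7, 50.6 and 56.4 CPM with siCtrl and 46.1, 45.4 and 40.4 CPM with siCDO1A. All siCDO1A values were lower, but the difference of -0.23 (SE 0.084, log2) had an adjusted p of 0.0779. SPDEF had 281, 292 and 308 CPM with siCtrl and 290.4, 279.8 and 245 CPM with siCDO1A, with overlap, and a log2 fold change of -0.11 (SE 0.0613, adjusted p 0.242). ETS1 and ETV4, with few counts, had values of -0.09 (SE 0.237) and -0.28 (SE 0.42), and changes of their size were not detectable at this depth.

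**Figure D2:**
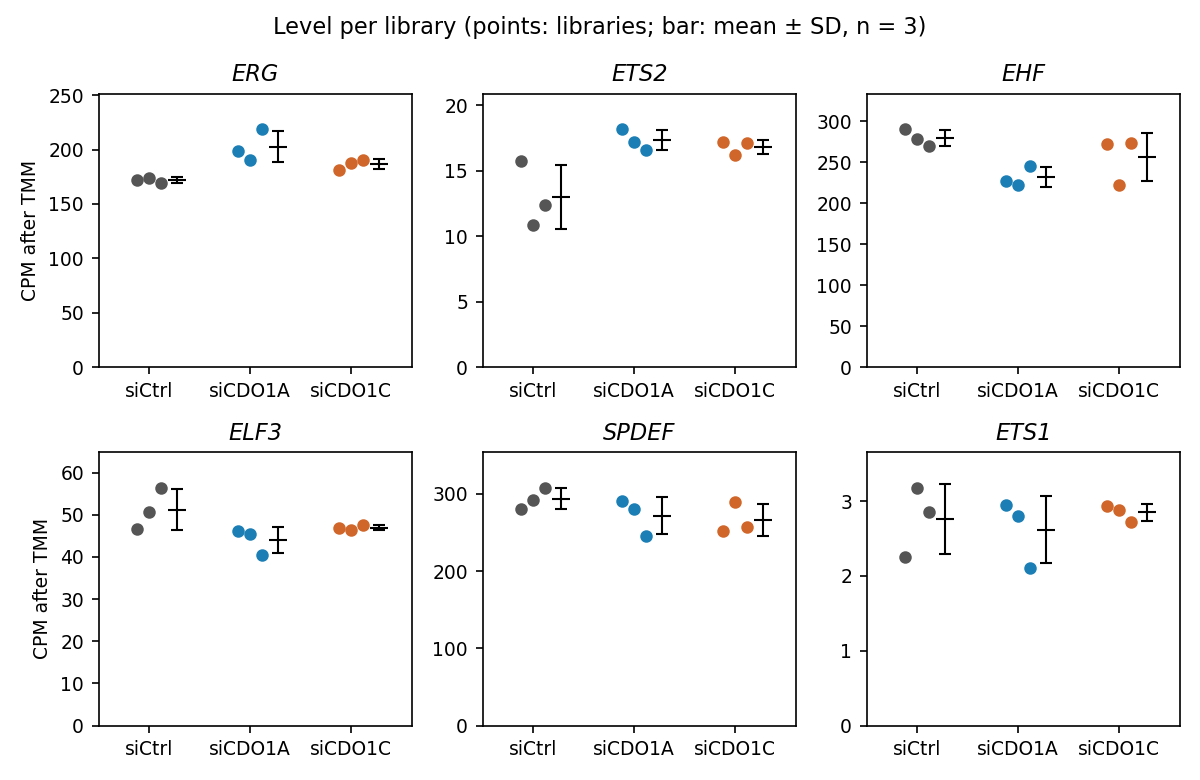
CPM after TMM scaling of 6 tested members in each library (points) by siRNA, with mean ± SD beside them (n = 3) and each axis starting at 0. For ERG and ETS2 every library of both CDO1 siRNAs is above the siCtrl libraries, for EHF the siCDO1A libraries are below them, and ETS1 overlaps throughout.

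In all, 3 of 7 members tested passed with siCDO1A (2 higher, 1 lower), beside 14.8% of all genes tested, or 7.37% higher and 7.48% lower. Groups did not overlap for 4 of 7 members, ERG, ETS2, EHF and ELF3, beside 30.6% of all genes (15.2% higher, 15.4% lower). With the batch number as a block 8.73% of all genes passed, and 2 of 7 members. The median log2 fold change was -0.11 over the 7 members and 0.01 over all genes tested. In the wider family, 4 of 21 genes passed, the fourth being ELF1, a broadly expressed factor, at 62.5 CPM against 80.6 CPM with siCtrl (log2 fold change -0.36, SE 0.0794, adjusted p 0.00364). Without siCDO1A replicate 3 the family count was 7 of 21, and 22.2% of all genes passed.

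Compared with siCtrl, siCDO1C gave no member past the threshold. ERG had 181, 188 and 190.4 CPM with siCDO1C, above each siCtrl library and below each siCDO1A library. Its log2 fold change was 0.11 (SE 0.0674, interval -0.03 to 0.26, adjusted p 0.408). ETS2 had 17.2, 16.2 and 17.1 CPM, also above the control range, with a log2 fold change of 0.37 (SE 0.135, interval 0.08 to 0.65, adjusted p 0.147). EHF had 272, 223 and 274 CPM with siCDO1C, where replicate 2 was at the level of the siCDO1A libraries and the other 2 were within the control range. The log2 fold change of EHF was -0.13 (SE 0.0849, adjusted p 0.447), that of ELF3 -0.13 (SE 0.0879, adjusted p 0.456) and that of SPDEF -0.15 (SE 0.0751, adjusted p 0.305). Over the other fits and without each library in turn, that of EHF ranged from -0.18 to -0.04 and was never called.

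By edgeR 0 of 7 members and 0 of 21 family genes passed with siCDO1C, with 1 and 3 at an unadjusted p under 0.05, and DESeq2 also gave 0 and 0. Among all genes tested 4.77% passed (2.27% higher, 2.5% lower). Groups did not overlap for 2 of 7 members, ERG and ETS2, beside 24.2% of all genes (12.1% higher, 12% lower). Without siCDO1C replicate 2, which stood apart, 13.3% of all genes passed and so did 2 members, ETS2 at 0.40 (adjusted p 0.0438) and SPDEF at -0.21 (adjusted p 0.00509), and 4 family genes. SPDEF had 252 and 257 CPM in the remaining siCDO1C libraries against 289.7 CPM in replicate 2. ELF1, at -0.23 with an adjusted p of 0.112, also passed without that library (adjusted p 0.031).

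With both siRNAs 0 of 7 members tested were called, beside 3.63% of all genes tested. Both comparisons use the same siCtrl libraries, so that their values are not independent. Side by side, siCDO1A and siCDO1C gave log2 values of 0.24 and 0.11 for ERG, 0.41 and 0.37 for ETS2, -0.27 and -0.13 for EHF, -0.23 and -0.13 for ELF3 and -0.11 and -0.15 for SPDEF. For EHF only replicate 2 of siCDO1C was below the control range, at 223 CPM beside 272 and 274 CPM in replicates 1 and 3. Compared directly, siCDO1C with siCDO1A, 0 of 7 members passed by edgeR (0 at an unadjusted p under 0.05, 0 by DESeq2), beside 0.444% of all genes (0.244% higher, 0.199% lower). The difference was -0.12 for ERG, with an interval of -0.29 to 0.05, and 0.14 for EHF, with an interval of -0.05 to 0.33. ERG was lower and ELF3 higher without overlap, 2 of 7 members beside 12.7% of all genes (6.37% lower, 6.34% higher). Without siCDO1C replicate 2, EHF passed in this comparison (0.23, adjusted p 0.0484), where 2.87% of all genes did.

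**Figure D3:**
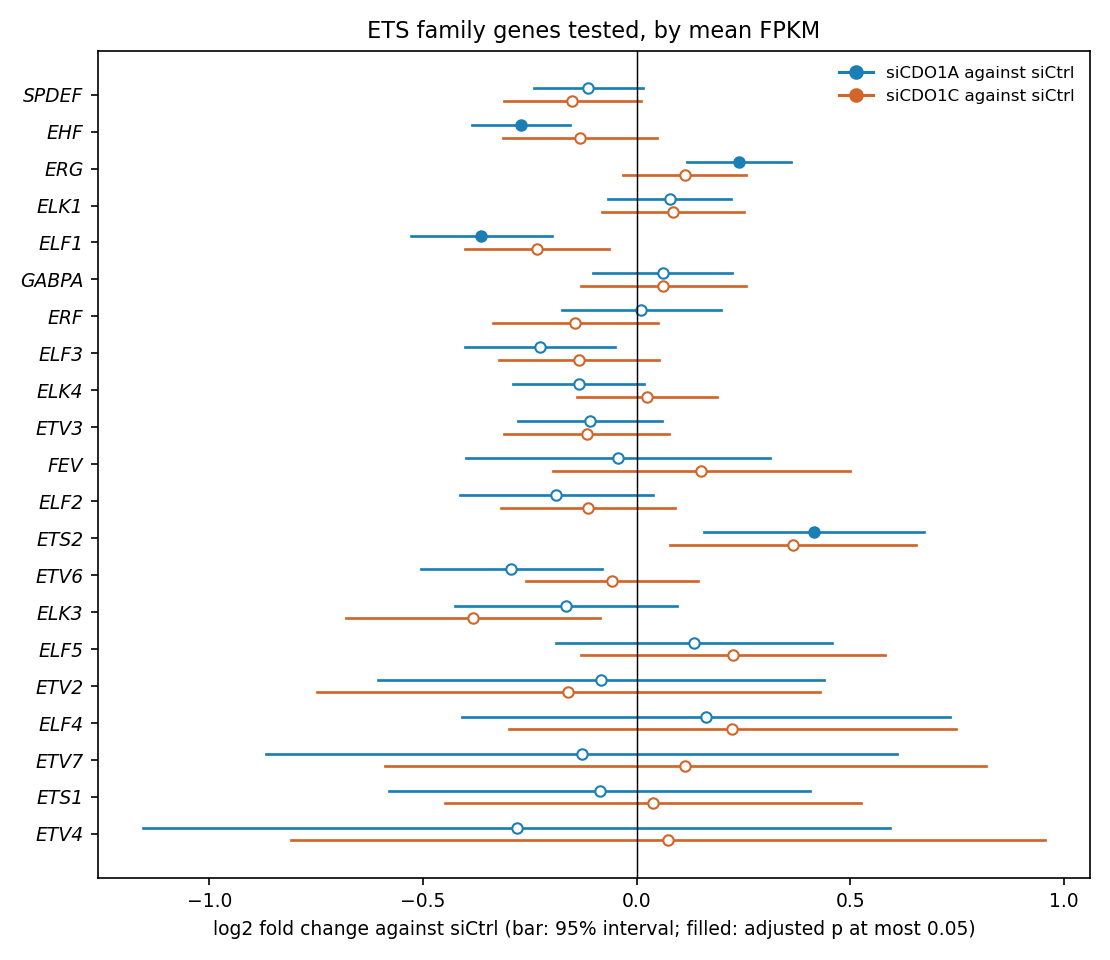
Log2 fold change against siCtrl of the 21 ETS family genes tested, ordered by mean FPKM from the top, for siCDO1A and siCDO1C, with bars for the 95% interval and filled points for an adjusted p of at most 0.05. ERG and ETS2 are filled to the right of 0 and EHF and ELF1 to the left, all with siCDO1A, and no siCDO1C point is filled.

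Across the 9 libraries, on log2(CPM + 0.5) and as a description of points that share groups, among the 5 members with a mean of at least 5 CPM, the level of ERG ran most against that of ELF3 (Pearson r = -0.85) and with that of ETS2 (r = 0.62). The values were -0.60 for ERG with SPDEF and -0.59 for ERG with EHF, and 0.70 for ELF3 with SPDEF. Among 11332 genes with a mean of at least 5 CPM, the levels most like that of ERG were those of KDELC2 (r = 0.97), ZBTB10 (0.96), GART (0.96), CS (0.95) and FAM135A (0.95). GART, an enzyme of purine synthesis, is on chromosome 21 as ERG is, and CS is citrate synthase. The lowest values were those of TSPAN9 (-0.96), GGT1 (-0.95) and SCGN (-0.95). Each of the 5 genes most like ERG was highest on average with siCDO1A and lowest with siCtrl, as ERG was.

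TMPRSS2, whose androgen-responsive promoter drives ERG in the fusion, was measured at 20.4 FPKM. It had 116 to 118 CPM with siCtrl, 124 to 129 CPM with siCDO1A and 129 to 134 CPM with siCDO1C, without overlap with the controls. The log2 fold change of TMPRSS2 was 0.10 (SE 0.0569, adjusted p 0.292) and 0.17 (SE 0.0679, adjusted p 0.2), so that neither passed. Of 54 genes that start between ERG and TMPRSS2 on chromosome 21 (2.80 Mb), 16 were tested, and HMGN1, BACE2 and PCP4 were the highest at 87.1, 13.4 and 11.7 FPKM. With siCDO1A 2 of the 16 were higher, ETS2 and PSMG1 (0.30, adjusted p 0.0303), and 2 were lower, B3GALT5 (-0.47, adjusted p 0.000171) and its antisense gene B3GALT5-AS1 (-0.62, adjusted p 0.0218), where 7.37% of all genes tested were higher and 7.48% lower. The PSMG1 call was lost with the batch block (0.0867), by DESeq2 (0.0507), in 1 fit of all 9 libraries (0.0841) and without any library but siCDO1A replicate 3 (0.0772 to 0.148). B3GALT5 was not called in the fit of all 9 (0.0755), and B3GALT5-AS1 neither by DESeq2 (0.0531) nor without any library but siCDO1A replicate 3 (0.0502 to 0.0914). With siCDO1C the smallest adjusted p among the 16 was 0.0915, that of IGSF5, and the median log2 fold changes were -0.01 with siCDO1A and -0.06 with siCDO1C. PSMG1, B3GALT5, its antisense gene and IGSF5 are named for these p-values, after their values were seen, and with strand settings of the counting not given, reads of an antisense pair may be shared.

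The 10 genes known as 5′ partners of ETS fusions, TMPRSS2 among them, were all tested. With siCDO1A 2 were higher and 1 lower, and with siCDO1C 1 was higher and 1 lower, with median log2 fold changes of 0.09 and 0.08 beside 0.01 and -0.000233 over all genes. That is 3 and 2 of 10, beside 14.8% and 4.77% of all genes tested, and DESeq2 called 3 of 10 with each siRNA. SLC45A3, a prostate membrane transporter also called prostein, had 165 to 180.4 CPM with siCtrl, 300.1 to 328 CPM with siCDO1A and 219 to 237 CPM with siCDO1C. The groups were separate, and the log2 fold change was 0.83 (SE 0.0563, adjusted p 3.01e-09) with siCDO1A and 0.37 (SE 0.071, adjusted p 0.00644) with siCDO1C, the latter lost without siCtrl replicate 2 (adjusted p 0.0854). HERPUD1, a membrane protein of the endoplasmic reticulum that takes part in protein degradation, fell by 0.50 and 0.81 on the log2 scale (adjusted p 5.02e-06 and 2.03e-05). KLK2, an androgen-responsive kallikrein, rose with siCDO1A by 0.34 (adjusted p 5.62e-05) and was at 0.09 with siCDO1C (adjusted p 0.536). The androgen-responsive kallikrein KLK3, counted below among the luminal markers, went the other way with both siRNAs (-0.38 and -0.43, adjusted p 0.00741 and 0.0243).

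**Figure D4:**
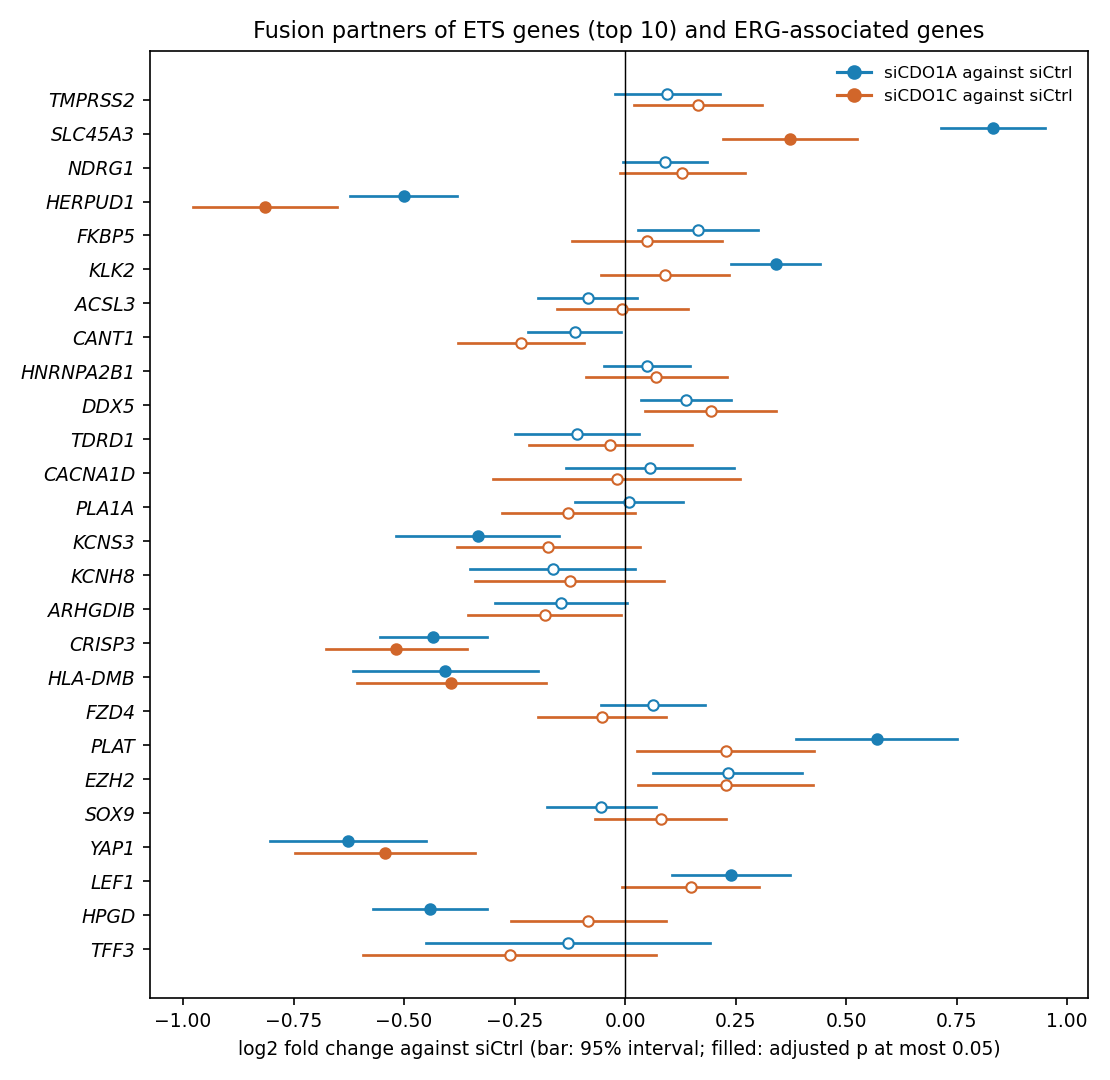
Log2 fold change against siCtrl of the 10 fusion partners (top, TMPRSS2 to DDX5) and 16 ERG-associated genes tested (TDRD1 to TFF3), with bars for the 95% interval and filled points for an adjusted p of at most 0.05. SLC45A3 is filled to the right of 0 and HERPUD1, CRISP3, HLA-DMB and YAP1 to the left with both siRNAs, while TMPRSS2 is open with both.

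Of 18 genes linked to ERG in prostate cancer, 16 were tested. With siCDO1A 2 were higher and 5 lower, and with siCDO1C 3 were lower and none higher by edgeR, with median log2 fold changes of -0.12 and -0.10. These are 7 and 3 of 16 genes, beside 14.8% and 4.77% of all genes tested, and DESeq2 also called 7 and 3. Called with both siRNAs were CRISP3, a secreted cysteine-rich protein (-0.43 and -0.52, adjusted p 2.89e-05 and 0.000925), YAP1, the coactivator of the Hippo pathway (-0.63 and -0.54, adjusted p 3.29e-05 and 0.00386), and HLA-DMB. HLA-DMB, which helps to load peptides on class II molecules, was at -0.41 and -0.39 (adjusted p 0.00882 and 0.0376). Its call was lost with siCDO1A without siCtrl replicate 3 or siCDO1A replicate 2 (adjusted p 0.0503 and 0.0752), and with siCDO1C without every library but siCDO1C replicate 2 (0.0533 to 0.194).

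Past the threshold with siCDO1A and not with siCDO1C were HPGD, which degrades prostaglandins (-0.44 and -0.08, adjusted p 4.72e-05 and 0.652), and PLAT, tissue plasminogen activator (0.57 and 0.23, adjusted p 0.000128 and 0.2). LEF1, a factor of Wnt signalling, was at 0.24 and 0.15 (adjusted p 0.015 and 0.295), and its siCDO1A call was lost with the batch block (0.0709) and without siCtrl replicate 2 or 3 (0.0758 and 0.065). KCNS3, a potassium channel subunit, was at -0.33 and -0.17 (adjusted p 0.0139 and 0.371), and its siCDO1A call was lost without siCtrl replicate 1 or siCDO1A replicate 1 or 2 (0.0507 to 0.0777). Compared directly, siCDO1C with siCDO1A, HPGD, PLAT, LEF1 and KCNS3 had adjusted p of 0.102, 0.228, 0.932 and 0.834 by edgeR, while DESeq2 called 1 of the 16 genes.

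Of 14 genes of ETS cofactors and turnover, all tested, 2 were higher with siCDO1A and none lower, a share of 14.3% that is near the 14.8% of all genes tested. MAPK3, the kinase ERK1, rose by 0.44 (SE 0.0982, adjusted p 0.00451) and TRIM25, a ubiquitin ligase, by 0.26 (SE 0.0612, adjusted p 0.0059). With siCDO1C they were at 0.39 and 0.24 (adjusted p 0.0679 and 0.0807), and 0 of 14 passed by edgeR, with 2 at an unadjusted p under 0.05 and 0 by DESeq2. In 1 fit of all 9 libraries both passed with siCDO1C (adjusted p 0.0312 and 0.0437), TRIM25 also without siCDO1C replicate 2 (0.000828).

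Of 13 ERK feedback genes, whose levels follow ERK activity in many cells, 10 were tested. With siCDO1A 1 was higher and 2 were lower, and with siCDO1C 1 was higher, where DESeq2 gave 1 call in each comparison. By edgeR these are 3 and 1 of 10 genes, beside 14.8% and 4.77% of all genes tested. PHLDA1 rose from 17 to 26 counts per library with siCtrl to 34 to 50 with siCDO1A and 40 to 43 with siCDO1C (0.88 and 1.01, adjusted p 0.0241 and 0.0322). The PHLDA1 calls were lost without siCtrl replicate 1 or 3 or siCDO1A replicate 1 or 3 (0.0512 to 0.0992), and with siCDO1C without every library but siCDO1C replicate 2 (0.0724 to 0.141). SPRY4, an inhibitor of ERK signalling, was 2.01-fold lower with siCDO1A (adjusted p 0.0279) and CCND1, cyclin D1, 1.13-fold lower (adjusted p 0.0183). The call for SPRY4 was lost with the batch block (0.0546) and without any library but siCtrl replicate 2 (0.0568 to 0.138). That for CCND1 was lost with the block (0.113), in the fit of all 9 libraries (0.0959) and without siCtrl replicate 1 or 2 or siCDO1A replicate 1 or 2 (0.0654 to 0.0942), and CCND1 passed with siCDO1C without siCDO1C replicate 2 (0.00425).

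Of 7 markers of prostate luminal cells, all tested and with KLK2 also among the fusion partners, 1 was higher and 3 lower with siCDO1A and 2 were lower with siCDO1C. That is 4 and 2 of 7, beside 14.8% and 4.77% of all genes tested. The summed level of the 7 luminal markers was 884 to 918 FPKM with siCtrl, 949 to 1025 with siCDO1A and 889 to 929 with siCDO1C. KLK2 made up 449 to 620 FPKM of it, and the sum of the other 6 markers was lower with both siRNAs without overlap, at 432 to 435 FPKM with siCtrl, 390 to 405 with siCDO1A and 407 to 411 with siCDO1C. The summed level of 5 neuroendocrine markers was 43.2 to 47.0, 49.4 to 55.5 and 48.0 to 53.2 FPKM in the same order. CHGA alone made up 23.2 to 31.6 FPKM of this sum over the libraries. Of the 5 neuroendocrine markers, 2 were higher and 1, NCAM1, lower with siCDO1A (-0.70, adjusted p 0.00311), and 0 passed with siCDO1C by edgeR (2 at an unadjusted p under 0.05, 0 by DESeq2). That is 3 and 0 of 5, beside 14.8% and 4.77% of all genes tested. The neuroendocrine sum was higher with both siRNAs and the luminal sum with siCDO1A, through KLK2, without overlap, as the levels of ERG and ETS2 were with both, and their part in the result was not tested. For single genes, groups did not overlap for 30.6% of those tested with siCDO1A and 24.2% with siCDO1C. Basal markers (2 of 5 tested) summed to 4.62 to 6.27 FPKM over all libraries. DST made up 3.55 to 5.58 FPKM of this sum. KRT5, KRT15 and TP63 had at most 2, 1 and 3 counts in any library and were not tested. The other basal marker tested, the keratin KRT14, had 12, 18 and 19 counts with siCtrl, 30, 46 and 34 with siCDO1A and 19, 36 and 24 with siCDO1C. KRT14 rose with siCDO1A by 1.14 on the log2 scale (adjusted p 0.0101, lost without siCtrl replicate 1 at 0.0502 or siCDO1A replicate 2 at 0.0661) and was at 0.74 with siCDO1C (adjusted p 0.264), and its part in the result was not tested. DESeq2 called 0 basal markers with either siRNA. Of the cells in which ERG and FLI1 are otherwise known, endothelial markers (2 of 7 tested) summed to 0.484 to 0.953 FPKM with CDH5 at 0 counts, and leukocyte markers (1 of 5 tested) to 0.895 to 2.47 FPKM.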

How the data were processed

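Poly(A) RNA was made into strand-specific libraries and sequenced from both ends. The authors counted reads per gene with featureCounts and deposited whole-number counts without normalization, with gene positions, gene length (definition not given) and 3 columns that match no sample, which were not used. The submitters' processing notes name CASAVA, HISAT2 2.0.5 and hg38, and how strand and multiply mapped reads were handled is not given in the sources used here. Deposited positions of 10 of 10 members overlapped RefSeq for GRCh38.

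Genes were kept by filterByExpr over 9 libraries (minimum count 10), and 3 comparisons of 3 libraries each were fitted with TMM and the robust quasi-likelihood test of edgeR 4.0.16 in R 4.3.3, with Benjamini-Hochberg adjustment over all 15555 genes tested and a threshold of 0.05. The script was tested on simulated data. CPM and FPKM were computed from the counts, TMM-scaled totals and the deposited gene length. Intervals are at 95% and cover the fit alone, and the limit set by 3 counts covers counting error only.

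The batch numbers in the labels pair the libraries of a number. Over same-numbered libraries, 2 of 9 correlations of deviations from group means were over 0.1 (-0.377 to 0.378). Both of these were between siCDO1C and siCDO1A, and those with siCtrl ran from -0.377 to 0.0522. For the pairing in the labels the batch was tried as a block, beside RLE size factors, other filters, 1 fit of all 9 libraries, DESeq2 1.42.0 and leaving out each library.

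The members and lists were chosen with earlier results of these data known. Named were all members, CDO1, the 5 highest other family genes, list genes called with both siRNAs, up to 3 further called genes per list and comparison, the 3 highest genes between ERG and TMPRSS2, and the genes most and least like ERG (5 and 3). LEF1, KRT14, DST, KRT5, KRT15, TP63, KLK3, CHGA, NCAM1 and 4 genes between ERG and TMPRSS2 were named after their values were seen. A few genes of these lists are not reported here, and the lists are counted without them.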

Additional observations from a re-analysis of the deposited data

Results flagged for a closer look

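SLC45A3, a fusion partner of ETS genes, responded with a different size to the 2 siRNAs, by a test of the difference itself. It was lower with siCDO1C than with siCDO1A by a log2 fold change of -0.46 (SE 0.0794, adjusted p 0.0114 by the quasi-likelihood test of edgeR), at 227 CPM ± 9.34 against 310.2 CPM ± 15.2 (SD, n = 3), with 174 CPM ± 7.74 in siCtrl. All siCDO1C libraries lay below all siCDO1A libraries and above all siCtrl libraries. The call was lost without siCDO1A replicate 1, 2 or 3 or siCDO1C replicate 1 (adjusted p 0.196, 0.0886, 0.0721 and 0.115). Among the members themselves no difference between the siRNAs passed this test.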

How the results depend on the processing

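TMM factors were between 0.99 and 1.01, so that levels by total count in place of TMM-scaled totals could differ little. They moved by less than the spread between libraries for the members with counts, and FLI1 was at 0 either way. RLE size factors, the 2 other filters, 1 fit of all 9 libraries and DESeq2 kept the 3, 0 and 0 calls of members in the 3 comparisons. With the batch number as a replicate block, ERG with siCDO1A (0.24, adjusted p 0.0509), SPRY4 (0.0546), CCND1 (0.113), PSMG1 (0.0867) and LEF1 (0.0709) lost their calls, and no other called gene that was followed here lost its call. KLK3 and NCAM1 were not followed through the other fits. Leaving out each library in turn gave 2 to 3 called members and 3 to 7 family genes with siCDO1A, 0 to 2 and 0 to 4 with siCDO1C, and 0 to 1 and 0 to 1 between the siRNAs, where the highest family count with siCDO1A came without siCDO1A replicate 3 and the other highest counts without siCDO1C replicate 2, a library doubted after the data were seen. The cause was not tested. Without a library, signs turned for uncalled values only: ETV4 ranged from -0.60 to 0.16 and from -0.25 to 0.52 with siCDO1A and siCDO1C, ETS1 from -0.21 to 0.054 and from -0.0758 to 0.14, and between the siRNAs SPDEF ranged from -0.0995 to 0.0149 and HLA-DMB from -0.0727 to 0.11. Calls over all genes fell from 2309 to 1369 in the fit of all 9 libraries and 1358 with the block for siCDO1A, and between the siRNAs rose from 69 to 153 without a filter, 128 in the fit of all 9, 121 with the block and 104 by DESeq2. Without a library they ranged from 1292 to 3454, 263 to 2068 and 18 to 447. Low counts limit ETS1, ETV4, ETV1, ETV5 and FLI1.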
